A study of Mus musculus with 12 samples.

Results

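Interferon-stimulated genes are genes whose transcription rises when a cell meets an interferon, and 45 of them were followed here in murine stem and progenitor cells with and without expression of BCR::ABL1. The members were set by symbol, from Stat2 and Irf1 to the Oas, Ifit, Mx, Gbp and Irg families, and each of the 45 symbols matched 1 of the 56748 Ensembl genes counted. All 45 passed the filter on low counts, which left 18438 genes for testing. Bulk RNA-seq had been carried out on 12 libraries of Lin-Sca+Kit+ bone marrow (BM) cells, a fraction rich in haemopoietic stem cells (HSC) and multipotent progenitors. Both groups held BM of the SCLtTA/BCR-ABL double transgenic (DTG) mouse, in which the SCL promoter drives a tetracycline-controlled transactivator in stem and progenitor cells, and human BCR::ABL1 is made once tetracycline (TET) is removed. CD45.2+ donor cells, taken from a frozen pool of several mice of both sexes, were given to irradiated CD45.1 B6.SJL recipients of 8 to 12 weeks, and every recipient drank TET for the first 2 weeks. TET was then kept (CTRL, BCR::ABL1-, 6 libraries) or withdrawn for 2 weeks (CML 2wk, BCR::ABL1+, 6 libraries), and CD45.2+ Lin-Sca+Kit+ cells were sorted. Exposure to TET itself thus differed along with BCR::ABL1, and the 2 cannot be told apart. The recipients had been irradiated, and their own remaining cells were kept out by the CD45.2 gate.

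Type I interferons (the alpha and beta forms) bind the receptor chains Ifnar1 and Ifnar2, and the kinases Jak1 and Tyk2 then set off the assembly of ISGF3. This factor holds Stat2 and Irf9 and binds the interferon-stimulated response element (ISRE). Interferon gamma uses Ifngr1 and Ifngr2 with Jak1 and Jak2, and acts on genes through the gamma-activated site (GAS). Many interferon-stimulated genes are also transcribed at a basal level in HSC without infection, where their products hold back viruses and retroelements, and interferons are known to drive quiescent HSC into cycle.

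The 2 response elements can be read in the promoters. Of the members, 34 had a promoter entry in RefSeq (build GRCm38.p6), and the 250 bases before each annotated start were searched on both strands for the ISRE core, written GAAA-NN-GAAA (TTTC-NN-TTTC on the other strand, N being any base), and for the GAS core TTC-NNN-GAA, which reads the same on both strands. Matches of the 2 patterns may overlap each other. An ISRE core stood in 15 of the 34 members (44.1%), against 936 of 27025 genes with a promoter entry (3.46%), and a GAS core in 8 of the 34 (23.5%), against 8.13% of all genes. A match is a description of the letters and no sign of occupancy. The 150 bases before the start are shown for 9 members, on the strand of the gene from 5′ to 3′, with ISRE and GAS cores in capitals. Oas3 and Ifit1 represent the strongly lowered members with ISRE cores, Irgm2 and Gbp7 carry both elements, Gbp3 and Gbp2 are neighbours that changed in opposite directions, Isg15 and Bst2 held several ISRE cores while missing the threshold, and Irf1 held a GAS core alone.
Oas3 (chr5:120777660-120777809, strand -): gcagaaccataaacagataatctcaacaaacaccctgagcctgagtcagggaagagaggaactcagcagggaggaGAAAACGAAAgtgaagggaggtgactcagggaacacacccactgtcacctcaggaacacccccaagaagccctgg
Ifit1 (chr19:34640739-34640888, strand +): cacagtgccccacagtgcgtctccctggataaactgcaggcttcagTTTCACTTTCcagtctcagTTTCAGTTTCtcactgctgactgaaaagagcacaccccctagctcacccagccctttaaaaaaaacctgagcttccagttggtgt
Irgm2 (chr11:58214827-58214976, strand +): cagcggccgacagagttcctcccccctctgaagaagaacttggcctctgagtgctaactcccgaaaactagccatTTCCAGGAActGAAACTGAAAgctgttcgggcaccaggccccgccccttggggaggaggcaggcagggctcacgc
Gbp7 (chr3:142530186-142530335, strand +): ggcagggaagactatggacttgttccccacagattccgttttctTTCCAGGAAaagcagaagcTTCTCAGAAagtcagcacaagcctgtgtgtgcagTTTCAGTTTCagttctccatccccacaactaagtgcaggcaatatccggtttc
Gbp3 (chr3:142559894-142560043, strand +): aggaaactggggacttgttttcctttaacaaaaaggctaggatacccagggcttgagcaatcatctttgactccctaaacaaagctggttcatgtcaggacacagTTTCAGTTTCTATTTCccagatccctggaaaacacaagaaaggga
Gbp2 (chr3:142620513-142620662, strand +): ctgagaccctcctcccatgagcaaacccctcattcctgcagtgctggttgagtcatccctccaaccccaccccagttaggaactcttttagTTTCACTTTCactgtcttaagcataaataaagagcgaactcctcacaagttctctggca
Isg15 (chr4:156200819-156200968, strand -): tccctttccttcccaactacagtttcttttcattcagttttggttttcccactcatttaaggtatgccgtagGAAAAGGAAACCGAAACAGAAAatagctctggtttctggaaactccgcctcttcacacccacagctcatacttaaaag
Bst2 (chr8:71537473-71537622, strand -): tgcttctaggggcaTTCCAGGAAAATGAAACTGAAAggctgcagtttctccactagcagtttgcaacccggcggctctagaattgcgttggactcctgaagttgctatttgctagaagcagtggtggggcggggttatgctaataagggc
Irf1 (chr11:53769864-53770013, strand +): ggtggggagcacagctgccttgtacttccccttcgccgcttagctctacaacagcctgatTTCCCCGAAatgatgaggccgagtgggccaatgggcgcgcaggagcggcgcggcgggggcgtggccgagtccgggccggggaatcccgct

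Between 22804754 and 41832868 reads were counted on genes in CTRL libraries and between 16150817 and 25070105 in CML 2wk libraries. Most members were far above the counting limit, since a count of 3 corresponds to 0.0725 to 0.184 CPM, the count scaled to the size of the library, and no member was at 0 in any library. The mitochondrial share of the counts was 0.816% to 1.29% in CTRL and 2.26% to 2.97% in CML 2wk libraries. The biological coefficient of variation was 10.8% among CTRL and 32.4% among CML 2wk libraries. Human BCR::ABL1 was not counted, so the transgene gave no check of the labels. The labels name a single sex per group, male for CTRL and female for CML 2wk, so that the labelled sex and BCR::ABL1 cannot be told apart. Whether the label gives the sex of the recipients or of the donor cells counted is not given in the sources used here. Xist was high in both groups, counted at 3794 to 4425 CPM in CTRL and 2183 to 3502 CPM in CML 2wk, and the Y-linked Ddx3y stayed at 0 to 0.588 CPM and 0 to 8.64 CPM. High Xist with almost no Ddx3y is the pattern of female cells, so the male label does not describe the cells counted in CTRL. Between the groups, Xist did not overlap and was lower in CML 2wk, and the highest Ddx3y, at 8.64 CPM, was in CML 2wk. Whether the cells of the 2 groups differ in the share of male cells was not tested. Nothing in the labels ties a library to a separate mouse, and the p-values measure the spread between these libraries. In bulk samples, fewer cells of a type and less RNA per cell cannot be told apart.

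In each of 9 functional classes, most interferon-stimulated genes were lower in BCR::ABL1+ cells. The adjusted p is that of edgeR's quasi-likelihood fit, corrected over all genes by the method of Benjamini and Hochberg, and a gene was called at an adjusted p under 0.05. Of the 45 members 42 were called, against 59.5% of all genes tested, and 40 were lower, against 29.0% of all genes. The fit called 2 members higher, Ifitm3 and Gbp3, against 30.6% of all genes, and left 3 members without a call, Isg15, Bst2 and Parp9. The median log2 fold change of the members (BCR::ABL1+ minus BCR::ABL1-) was -0.96, beside 0.07 over all genes. In 38 members every BCR::ABL1+ library lay below every BCR::ABL1- library, a state seen in 20.6% of genes, and in 0 members did every BCR::ABL1+ library lie above, against 17.0% of genes. A log2 fold change of -1 or less together with a call was reached by 22 members, against 5.78% of genes. The plot of fold changes by role shows these classes side by side.

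**Figure D1:**
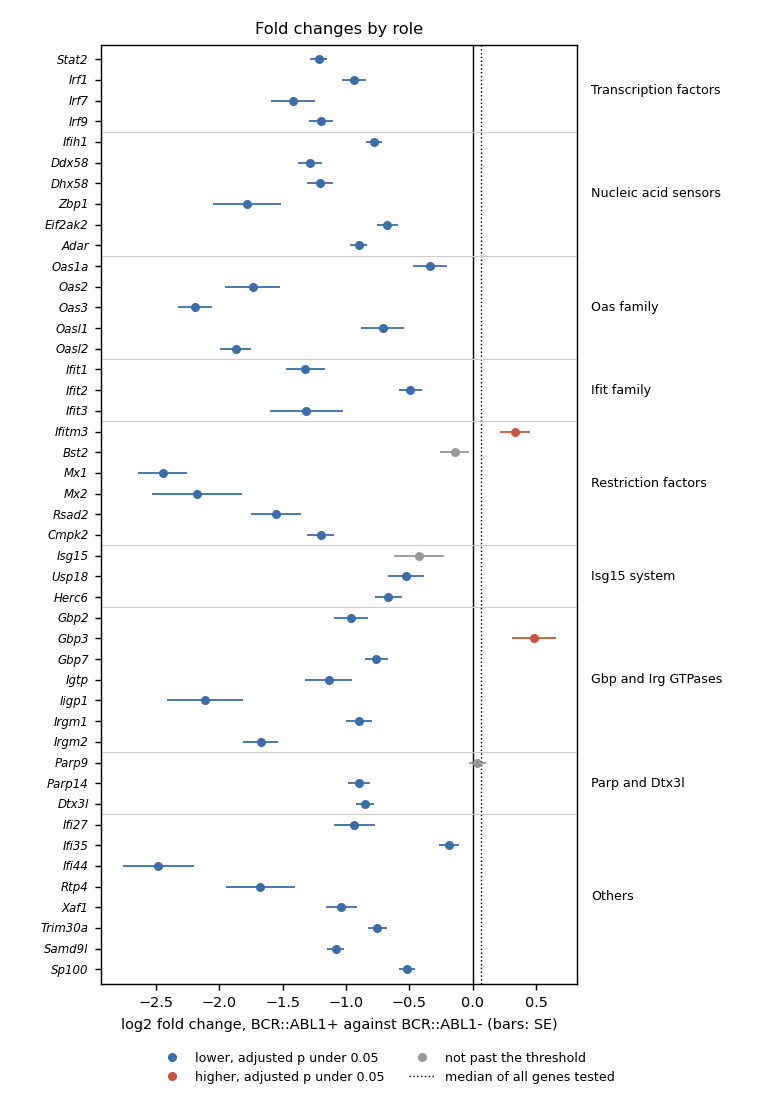
Log2 fold change (x axis, BCR::ABL1+ against BCR::ABL1-, with SE derived from the F statistic of the edgeR test) of each of the 45 members, grouped by role. The points of 40 members lie left of zero with an adjusted p under 0.05 (blue), Ifitm3 and Gbp3 lie to the right (red), Isg15, Bst2 and Parp9 did not pass (grey), and the dotted line is the median of all genes tested, 0.07.

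The transcription factors that carry the interferon response were lower without exception, with 4 of 4 called and a median log2 fold change of -1.21. Stat2 (ENSMUSG00000040033), a subunit of ISGF3, ran from 50.5 CPM (median 56.5) to 62.3 CPM in BCR::ABL1- libraries and from 21.9 CPM (median 24.2) to 26.5 CPM in BCR::ABL1+ libraries. Each group was tight and the 2 were far apart, with a log2 fold change of -1.22 (SE 0.07, adjusted p = 1.71e-08). Irf9 (ENSMUSG00000002325), the DNA-binding partner of Stat2 in ISGF3, spanned 74.6 to 92.4 CPM (median 87.3) in BCR::ABL1- and 29.7 to 46.1 CPM (median 36.1) in BCR::ABL1+. Its level was 2.29-fold lower (log2 fold change -1.20, SE 0.09, adjusted p = 1.35e-07), and reads in exons shared with Rnf31 on the same strand may be split. Irf7 (ENSMUSG00000025498), the factor that amplifies type I interferon production, was counted at 22.2 to 26.3 CPM (median 23.2) and at 5.27 to 12.8 CPM (median 9.48). No library of one group reached the other, and the drop was 2.67-fold (log2 fold change -1.42, SE 0.17, adjusted p = 6.53e-06), with Phrf1 overlapping on the opposite strand. Irf1 (ENSMUSG00000018899), a factor known to be induced through a GAS such as the one printed above, had 98.8 to 124 CPM (median 108) and 45.7 to 69.8 CPM (median 59.0). It was lowered least of the 4, by 1.92-fold (log2 fold change -0.94, SE 0.10, adjusted p = 1.43e-06), again without overlap.

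**Figure D2:**
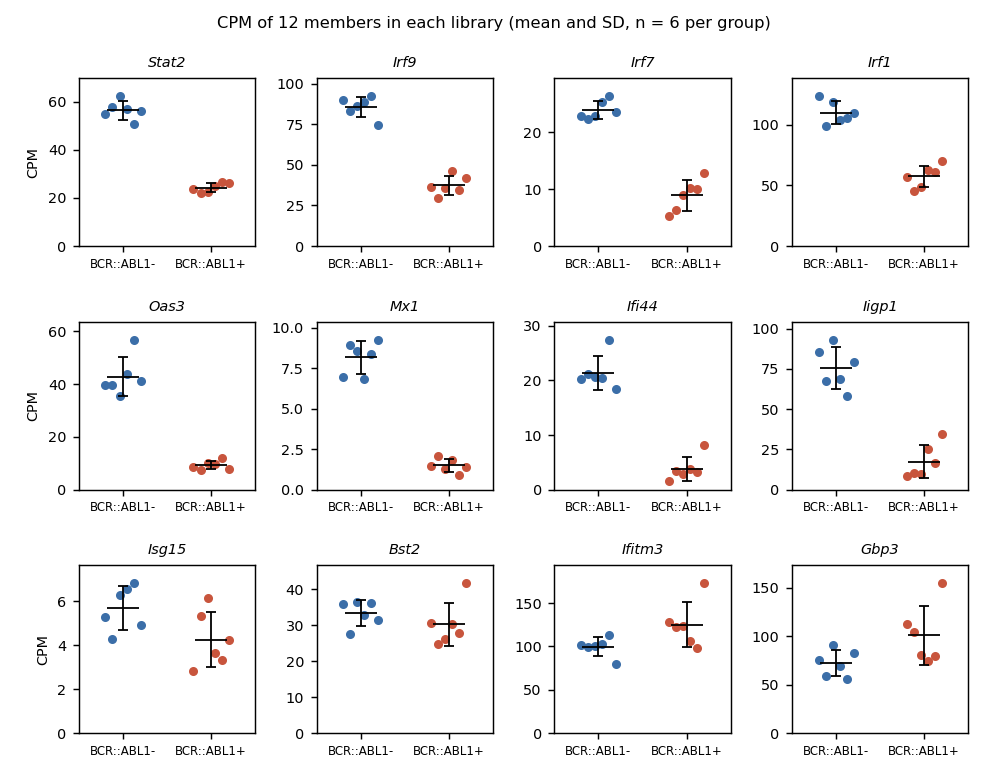
CPM (y axis, each from 0) of 12 members in every library, with BCR::ABL1- in blue and BCR::ABL1+ in red, and with the mean and SD of the 6 libraries of a group. In the upper 2 rows the groups do not overlap, whereas Isg15, Bst2, Ifitm3 and Gbp3 in the lowest row overlap, with BCR::ABL1+ replicate 6 highest for the last 3.

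Sensors of foreign and unusual nucleic acids were lower as well, with 6 of 6 members called and a median log2 fold change of -1.05. Ddx58 (ENSMUSG00000040296), which encodes the RNA sensor RIG-I, ranged from 79.1 to 92.5 CPM (median 87.3) in BCR::ABL1- and from 29.0 to 43.6 CPM (median 33.4) in BCR::ABL1+. This was a 2.44-fold difference (log2 fold change -1.28, SE 0.09, adjusted p = 7.44e-08) with a wide gap between the groups. Dhx58 (LGP2), a regulator of RIG-I and MDA5, had a log2 fold change of -1.21 (adjusted p = 2.44e-07), and Ifih1, which encodes MDA5, one of -0.78 (adjusted p = 1.59e-07). Zbp1 (ENSMUSG00000027514), a sensor of left-handed nucleic acids that can start necroptosis, was counted at 11.4 to 13.3 CPM (median 12.0) in BCR::ABL1- and at 1.33 to 6.71 CPM (median 3.42) in BCR::ABL1+. The BCR::ABL1+ libraries were scattered, with replicate 2 lowest and replicate 6 highest, but all lay below BCR::ABL1- (log2 fold change -1.78, SE 0.27, adjusted p = 4.89e-05). The abundant Adar, which edits double-stranded RNA, and Eif2ak2, the kinase PKR that stops translation on double-stranded RNA, moved less, with log2 fold changes of -0.90 (adjusted p = 9.48e-08) and -0.68 (adjusted p = 6.12e-06).

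The Oas family, whose enzymes make 2-5 oligoadenylates that switch on RNase L, held the class median furthest from zero, a log2 fold change of -1.74 over 5 members, all called lower. Oas3 (ENSMUSG00000032661), whose promoter above carries 1 ISRE core, fell from 35.4 to 56.8 CPM (median 40.4) in BCR::ABL1- to 7.57 to 12.0 CPM (median 9.19) in BCR::ABL1+. The highest BCR::ABL1+ library thus remained well under the lowest BCR::ABL1- library, and the level was 4.57-fold lower (log2 fold change -2.19, SE 0.13, adjusted p = 2.43e-08). Oasl2, an Oas-like gene, was at 47.7 to 64.0 CPM (median 53.1) and at 11.5 to 18.8 CPM (median 15.2), a log2 fold change of -1.87 (SE 0.12, adjusted p = 4.48e-08). Oas2 was at 14.4 to 22.3 CPM (median 16.6) and at 2.82 to 7.23 CPM (median 5.21), a log2 fold change of -1.74 (SE 0.22, adjusted p = 8.06e-06). These 3 genes had been lowered by over 3-fold, and Oasl1 and Oas1a by less. Oasl1, known as a brake on Irf7 translation, had a log2 fold change of -0.71 (adjusted p = 0.00225). Oas1a overlapped between groups, at 16.2 to 23.1 CPM and 11.5 to 20.1 CPM, and its call (log2 fold change -0.34, adjusted p = 0.0374) was lost in 10 of 23 alternative analyses, among them the fits without BCR::ABL1- replicate 4 or 5 or BCR::ABL1+ replicate 1, 3, 4 or 5 (log2 fold changes of -0.34 to -0.27). Close copies of Oas1a were counted beside it, and Oas1b was lower (log2 fold change -1.02, adjusted p = 0.000203) while Oas1g (-0.37, adjusted p = 0.491) and Oas1c (-0.14, adjusted p = 0.516) did not pass, so that a split of reads among them leaves each value uncertain.

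The Ifit genes encode proteins that bind viral RNA ends and block their translation, and 3 of 3 were lower. Ifit1 (ENSMUSG00000034459), with 2 ISRE cores in the sequence shown, was at 8.04 to 11.6 CPM (median 9.12) in BCR::ABL1- and at 2.78 to 4.54 CPM (median 3.82) in BCR::ABL1+. The 2.50-fold difference (log2 fold change -1.32, SE 0.16, adjusted p = 4.90e-06) exceeded the spread of either group. Its near copy Ifit1bl1, with which reads may be split, was lower with overlap (log2 fold change -0.63, adjusted p = 0.0484). Ifit3 had the same size of change as Ifit1 on far fewer reads (log2 fold change -1.31, SE 0.29, adjusted p = 0.00123), with 5 to 32 counts per BCR::ABL1+ library and a near copy, Ifit3b, that did not pass (log2 fold change -0.07, adjusted p = 0.927). Ifit2 was the most abundant of the 3 per kilobase of exon and changed least (log2 fold change -0.49, adjusted p = 0.000273).

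Among the restriction factors, 4 of 6 were lower, 1 was higher and 1 was not called. The dynamin-like GTPase Mx1 (ENSMUSG00000000386), which blocks influenza and related viruses, was low already, at 6.86 to 9.28 CPM (median 8.51) in BCR::ABL1-, and came to 0.900 to 2.10 CPM (median 1.43) in BCR::ABL1+. That is 5.45-fold lower (log2 fold change -2.45, SE 0.19, adjusted p = 1.54e-07), with 21 to 49 counts per BCR::ABL1+ library. Its paralog Mx2 was at 4.23 to 5.80 CPM (median 4.77) and at 0.342 to 2.39 CPM (median 0.931). The groups stayed apart, although BCR::ABL1+ replicate 4 was well above the rest (log2 fold change -2.18, SE 0.35, adjusted p = 9.75e-05). Rsad2 (viperin), a radical SAM enzyme that makes a chain-terminating nucleotide, was at 15.7 to 28.2 CPM (median 21.4) and at 4.59 to 10.4 CPM (median 6.65), a log2 fold change of -1.55 (SE 0.20, adjusted p = 9.30e-06). Cmpk2, its neighbour in the genome that supplies the nucleotide substrate, had a log2 fold change of -1.20 (adjusted p = 3.16e-07).

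The membrane proteins of the same class behaved otherwise. Ifitm3 (ENSMUSG00000025492), which blocks viral fusion in endosomes, was at 79.5 to 113 CPM (median 101) in BCR::ABL1- and at 98.3 to 173 CPM (median 123) in BCR::ABL1+. The ranges overlapped, the log2 fold change was 0.33 (SE 0.12, adjusted p = 0.0271), and without BCR::ABL1+ replicate 6 it was 0.21 and no longer called (adjusted p = 0.0628), nor was it without BCR::ABL1- replicate 6, at 0.27 (adjusted p = 0.0673). Bst2 (tetherin), which holds budding virions at the surface, was at 27.5 to 36.6 CPM (median 34.5) and at 24.9 to 41.7 CPM (median 29.1). Its log2 fold change was -0.14 (SE 0.12, adjusted p = 0.304), and without BCR::ABL1+ replicate 6, the highest library, it was -0.27 and called (adjusted p = 0.0173). The Bst2 promoter shown holds 2 ISRE cores and 1 GAS core.

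Of the Isg15 system, in which the ubiquitin-like Isg15 is attached to proteins, 2 of 3 members were lower. Isg15 (ENSMUSG00000035692) itself was at 4.28 to 6.82 CPM (median 5.79) in BCR::ABL1- and at 2.83 to 6.13 CPM (median 3.94) in BCR::ABL1+. Replicates 2 and 3 of BCR::ABL1+ lay inside the BCR::ABL1- range, and the log2 fold change of -0.42 (SE 0.20, adjusted p = 0.0790) did not pass. It was -0.51 (adjusted p = 0.0304) without BCR::ABL1+ replicate 2 and -0.55 (adjusted p = 0.0232) without replicate 3. Usp18, the protease that removes Isg15 and also binds Ifnar2 to damp the type I signal, was at 14.9 to 17.8 CPM (median 16.9) and at 7.44 to 14.4 CPM (median 12.8). The groups only just separated (log2 fold change -0.53, SE 0.14, adjusted p = 0.00539). Herc6, the mouse ligase for Isg15, had a log2 fold change of -0.67 (adjusted p = 7.03e-05).

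The Gbp and Irg GTPases, which attack the vacuoles of intracellular microbes and respond strongly to interferon gamma, counted 6 lower and 1 higher of 7. Iigp1 (ENSMUSG00000054072) was at 58.2 to 93.2 CPM (median 73.9) in BCR::ABL1- and at 8.39 to 34.3 CPM (median 13.3) in BCR::ABL1+. The BCR::ABL1+ libraries differed among themselves by several fold, replicates 1 to 3 being lowest and replicates 4 and 6 highest, yet all lay below BCR::ABL1- (log2 fold change -2.11, SE 0.30, adjusted p = 2.71e-05). Its close copies Gm4951 and F830016B08Rik were lower too, with log2 fold changes of -2.12 (adjusted p = 0.000159) and -2.81 (adjusted p = 1.06e-05). Irgm2 was at 63.2 to 79.3 CPM (median 70.4) and at 13.97 to 29.1 CPM (median 21.7), a 3.19-fold difference (log2 fold change -1.67, SE 0.14, adjusted p = 1.92e-07). Igtp, which overlaps exons of Irgm2 on the same strand in the annotation, had a log2 fold change of -1.14 (adjusted p = 0.000118), and reads of the pair may be split. Irgm1, which keeps the other Irg proteins inactive on host membranes, had one of -0.89 (adjusted p = 3.84e-06).

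Gbp3 (ENSMUSG00000028268) went the other way from its neighbours. It lies between Gbp7 and Gbp2 on chromosome 3 (GRCm38.p6, Gbp7 at chr3:142530336-142550151, Gbp3 at chr3:142560016-142573213, Gbp2 at chr3:142620663-142638008). Gbp3 was at 56.0 to 90.8 CPM (median 72.9) in BCR::ABL1- and at 74.5 to 155 CPM (median 92.7) in BCR::ABL1+, with overlap, and its log2 fold change was 0.48 (SE 0.17, adjusted p = 0.0254). Without BCR::ABL1+ replicate 6, the highest library, this was 0.31 and not called (adjusted p = 0.0662). The call was also lost without BCR::ABL1- replicate 2 (0.43, adjusted p = 0.0598), BCR::ABL1- replicate 5 (0.41, adjusted p = 0.0626) or BCR::ABL1+ replicate 1 (0.45, adjusted p = 0.0526). Gbp2 and Gbp7 were lower, with log2 fold changes of -0.96 (adjusted p = 2.22e-05) and -0.76 (adjusted p = 4.80e-06). Taken within each library, the log2 ratio of Gbp3 to Gbp2 was -0.01 to 0.38 in BCR::ABL1- and 1.23 to 2.03 in BCR::ABL1+, and that of Gbp3 to Gbp7 was -1.26 to -0.74 and -0.25 to 0.68. Neither ratio overlapped between groups, and the pairs were chosen after their values were seen, so no test is given. All 3 promoters printed above hold an ISRE core within 60 bases of the start, and the GAS core is found in that of Gbp7 alone.

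The ADP-ribosyltransferases Parp14 and Parp9 and the ubiquitin ligase Dtx3l, which pairs with Parp9 in 1 complex, gave 2 lower and 1 not called. Parp14 had a log2 fold change of -0.90 (adjusted p = 6.72e-07) and Dtx3l one of -0.85 (adjusted p = 1.82e-07). Parp9 was at 74.2 to 88.2 CPM (median 84.6) in BCR::ABL1- and at 78.5 to 96.0 CPM (median 82.0) in BCR::ABL1+. The ranges nearly coincided (log2 fold change 0.04, SE 0.07, adjusted p = 0.672). Dtx3l and Parp9 sit head to head on chromosome 16 and overlap at their starts on opposite strands, and without a stated strand setting reads there cannot be assigned to one of them. The log2 ratio of Parp9 to Dtx3l was -1.41 to -1.23 in BCR::ABL1- and -0.58 to -0.29 in BCR::ABL1+, a pair likewise picked after its values were seen.

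The remaining 8 members were lower in every case, with a median log2 fold change of -0.99. Ifi44 (ENSMUSG00000028037), a cytoplasmic protein with antiviral activity, had the lowest log2 fold change of all members. It was at 18.5 to 27.5 CPM (median 20.5) in BCR::ABL1- and at 1.59 to 8.09 CPM (median 3.31) in BCR::ABL1+. The drop was 5.59-fold (log2 fold change -2.48, SE 0.28, adjusted p = 3.09e-06), with BCR::ABL1+ replicate 6 well above the next library. Rtp4, a chaperone of receptors at the membrane that also restricts flaviviruses, was at 16.04 to 30.9 CPM (median 19.3) and at 1.97 to 8.90 CPM (median 7.30), a log2 fold change of -1.68 (SE 0.27, adjusted p = 0.000102). BCR::ABL1+ replicate 2 was far below the other 5 libraries. The abundant genes Samd9l, a translational repressor and myeloid tumour suppressor (log2 fold change -1.08, adjusted p = 2.87e-08), Trim30a (-0.75, adjusted p = 1.47e-06) and Sp100, a nuclear body protein (-0.52, adjusted p = 4.24e-06), had small errors. Close copies of Trim30a were called lower too, with log2 fold changes of -0.63 for Trim30b, -1.11 for Trim30c and -1.56 for Trim30d. Reads may be split among these copies, which leaves the value of Trim30a uncertain beyond its error. Xaf1, a promoter of apoptosis, had a log2 fold change of -1.04 (adjusted p = 5.44e-06) and Ifi27 one of -0.93 (adjusted p = 0.000199). Ifi35 differed little, at 19.9 to 23.7 CPM and 17.4 to 20.5 CPM with overlap, and its call (log2 fold change -0.19, adjusted p = 0.0485) was lost in 11 of 23 alternative analyses, among them the fits without BCR::ABL1- replicate 3, 4 or 5 or BCR::ABL1+ replicate 1, 3 or 5 (log2 fold changes of -0.20 to -0.16).

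**Figure D3:**
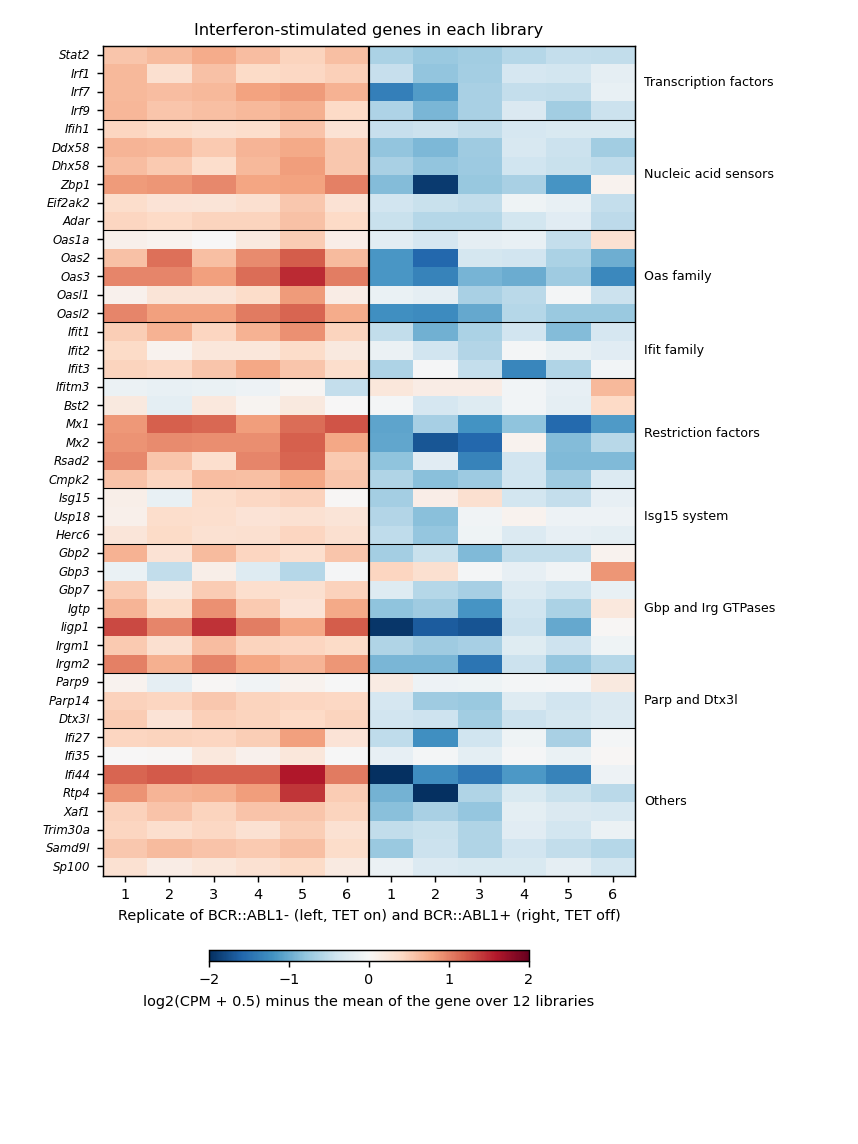
Level of each member in each library, as log2(CPM + 0.5) minus the mean of the gene over 12 libraries (red above, blue below, colours saturating at 2), with members in rows by role and libraries in columns. The left 6 columns (BCR::ABL1-) are red and the right 6 (BCR::ABL1+) blue for most rows, with reversed or pale rows at Ifitm3, Bst2, Gbp3 and Parp9, deeper red in BCR::ABL1- replicate 5 and paler blue in BCR::ABL1+ replicate 6.

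Library by library, the mean log2 CPM over the 45 members was 5.22 to 5.42 (median 5.30) in BCR::ABL1- and 4.00 to 4.49 (median 4.16) in BCR::ABL1+, so the groups did not overlap and the second was the more scattered. Members did not rank the libraries alike. BCR::ABL1- replicate 5 was the highest of its group in 25 of the 38 members that are not Gbp or Irg GTPases, and the highest in 0 and the lowest in 4 of the 7 GTPases. For the GTPases, BCR::ABL1- replicate 3 was highest in 4 of 7. In BCR::ABL1+, replicate 6 was highest in 20 of 45 members, among them 6 of the 7 GTPases, replicate 4 was highest in 13, and replicate 2 was lowest in 19. These are counts over genes of the same libraries and not tests.

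The deposited tables carry serial numbers, and in both groups that of replicate 6 lies apart from those of the other 5. What the numbers mark is not given in the sources used here, and they are not taken as a batch. BCR::ABL1+ replicate 6 was below BCR::ABL1- replicate 6 in 39 of 45 members (86.7%), with a median log2 difference of -0.73, where 49.8% of all genes were below and the median was 0.00. This rests on 1 library per group and has no test. Without both libraries, 41 members were lower and 1 was higher, with a median log2 fold change of -1.08.

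Per kilobase of exon, the members spanned a wide range of levels. In BCR::ABL1- libraries Ifitm3 stood first, at a median of 149.6 CPM per kilobase, followed by Ifi27 at 39.2, Bst2 at 38.2 and Dtx3l at 37.3 CPM per kilobase, and Mx2 and Ifit3 stood last at 1.32 and 1.25. In BCR::ABL1+ libraries Ifitm3 was again first at 181 CPM per kilobase, and Bst2, Gbp3, Ifi27 and Dtx3l followed at 32.2, 28.4, 21.0 and 20.7. At the low end Mx1 came to 0.377 and Mx2 to 0.258 CPM per kilobase. Neighbours in such an order are often closer than the spread over libraries, as with Ifi27, Bst2 and Dtx3l in BCR::ABL1-.

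**Figure D4:**
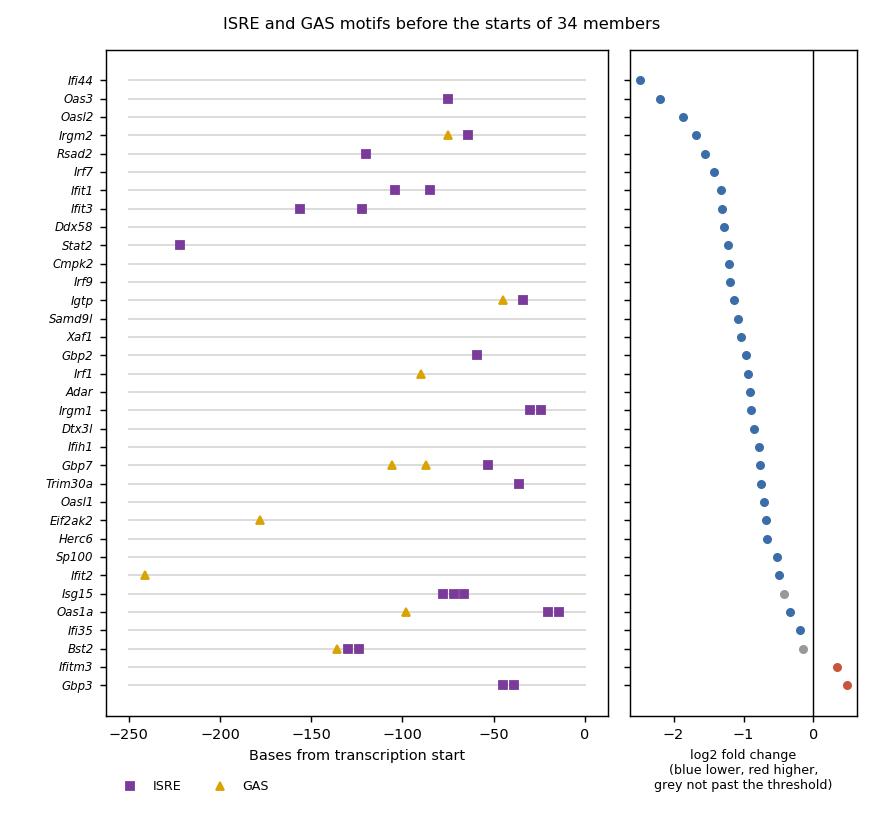
Left, position of ISRE cores (squares) and GAS cores (triangles) in the 250 bases before the start (x axis, bases from the start) of the 34 members with a promoter entry, ordered by log2 fold change. Right, that log2 fold change, showing members with and without an ISRE core at both ends of the order.

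Among the 34 members with a promoter entry, presence of an ISRE core did not sort them by their change. The 11 members without an entry could not be placed, and their log2 fold changes ran from -2.45 (Mx1) to 0.04 (Parp9). Mx2, Iigp1, Zbp1, Oas2 and Rtp4 are also among these 11, so much of the strongly lowered end was not covered. Among the 15 members with a core, 12 were lower, 1 was higher and 2 were not called, with a median log2 fold change of -0.96. Among the 19 members without one, 18 were lower and 1 was higher, with a median of -0.90. Ifi44 and Oasl2, among the most lowered members, held neither pattern in this window, and the absence of a match says only that these letters are not there.

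The rest of the interferon pathway was examined with a list of 38 genes outside the members, of which 29 could be tested. Of these, 14 were lower (48.3%), 7 higher and 8 not called, against 29.0% lower and 30.6% higher over all genes tested. The share of higher genes was thus not above that of all genes. The ligands were all but absent. Ifnb1, 4 Ifna genes, Ifne, Ifnl2 and Ifnl3 had 0 counts in all 12 libraries, a depth at which up to 3 counts (0.184 CPM in the smallest library) could be missed, and Ifng had at most 2 counts. Ifnk, an interferon of keratinocytes, alone passed the filter, at 0.396 to 0.664 CPM and 0.525 to 1.33 CPM (log2 fold change 0.75, adjusted p = 0.0335). The receptors divided 2 lower and 2 higher of 6. Ifngr1, the ligand-binding chain of the interferon gamma receptor, was higher, at 112 to 143 CPM (median 128) in BCR::ABL1- and 183 to 408 CPM (median 299) in BCR::ABL1+ (log2 fold change 1.15, SE 0.16, adjusted p = 2.55e-05). The type I receptor chains, named here after their values were seen, changed little, with log2 fold changes of -0.22 for Ifnar1 (adjusted p = 0.00740) and -0.23 for Ifnar2 (adjusted p = 0.0168).

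The kinases and STATs described here were lower in 4 of 4 cases, against 29.0% of all genes, with a median log2 fold change of -0.66. Tyk2, the kinase on Ifnar1, had a log2 fold change of -0.89 (adjusted p = 1.59e-07) and Jak2 one of -0.76 (adjusted p = 4.53e-06). Among the negative regulators, 3 of 5 were higher and 1 was lower, against 30.6% and 29.0% of all genes. Socs3, an inhibitor of JAK kinases that is itself a STAT target, was at 4.53 to 8.82 CPM (median 6.61) and at 28.0 to 50.7 CPM (median 35.1), a 5.41-fold rise without overlap (log2 fold change 2.44, SE 0.18, adjusted p = 7.67e-08).

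Of 13 genes that lead to interferon production, 7 were lower and 1 was higher, against 29.0% and 30.6% of all genes. Irf8, a factor of monocyte and dendritic cell development, was at 132 to 202 CPM (median 156) and at 24.2 to 104 CPM (median 58.4), a log2 fold change of -1.47 (adjusted p = 0.000259). Irf5 and Irf2, an activator and a repressor at Irf sites, had log2 fold changes of -1.13 (adjusted p = 1.06e-05) and -0.83 (adjusted p = 1.31e-07). Mavs, the adaptor of RIG-I on mitochondria, had one of -0.74 (adjusted p = 4.65e-06). The endosomal sensors Tlr9 and Tlr3 had log2 fold changes of -1.61 (adjusted p = 5.43e-05) and -1.79 (adjusted p = 0.0157), the latter with overlap, since 1 BCR::ABL1+ library reached 20.2 CPM against a median of 2.15 CPM.

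**Figure D5:**
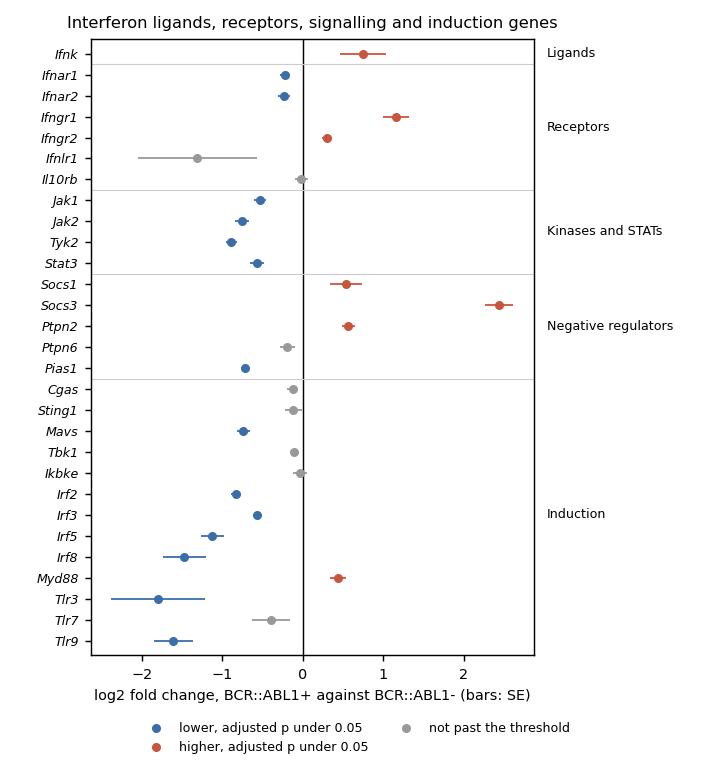
Log2 fold change (x axis, BCR::ABL1+ against BCR::ABL1-, with SE) of the 29 tested pathway genes outside the members, grouped as ligands, receptors, kinases and STATs, negative regulators and induction genes. The 4 kinases and STATs lie left of zero, whereas Socs3, at 2.44, and Ifngr1, at 1.15, lie furthest to the right.

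A second list held 58 other interferon-stimulated genes, chosen like the members with earlier results known. Of the 57 tested, 48 were lower (84.2%, against 29.0% of all genes), 5 higher (against 30.6% of all genes) and 4 not called. The median log2 fold change of the list was -0.96. Those furthest below zero were GTPases and a chemokine of the gamma response, with log2 fold changes of -2.29 for Gbp4 (adjusted p = 0.000253), -2.27 for Cxcl9 (adjusted p = 0.0182), -2.27 for Gbp8 (adjusted p = 0.00330) and -2.17 for Gbp6 (adjusted p = 0.000481). Their BCR::ABL1+ medians were all under 1 CPM. Slfn5, a Schlafen protein, was lower by 3.61-fold (log2 fold change -1.85, adjusted p = 3.46e-06), and Slfn1 had a log2 fold change of -1.84 (adjusted p = 0.0203) with overlap. The 5 higher genes were Ifitm1, Ifitm2, Slfn2, Tor3a and Pnpt1, and 3 of them (Ifitm1, Ifitm2 and Pnpt1) did not overlap between groups. Pnpt1, which encodes a mitochondrial RNA-degrading enzyme, had a log2 fold change of 0.78 (adjusted p = 1.56e-06). The largest rise of the 5 was that of Ifitm1, at 48.8 to 68.7 CPM (median 64.7) in BCR::ABL1- and 277 to 469.6 CPM (median 332) in BCR::ABL1+. It rose by 5.58-fold (log2 fold change 2.48, SE 0.14, adjusted p = 1.71e-08), and the log2 ratio of Ifitm3 to Ifitm1 went from 0.56 to 0.80 in BCR::ABL1- down to -1.62 to -1.20 in BCR::ABL1+.

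Whole families were also counted, picked after values were seen, and stand beside 29.0% of all genes tested lower and 30.6% higher. They hold many of the members and listed genes already counted above, so these counts are not separate evidence. None of the 6 tested Ifitm genes was lower and 3 were higher (Ifitm1, Ifitm2 and Ifitm3, with log2 fold changes of 2.48, 0.47 and 0.33), while 8 of 9 Irf genes were lower and 0 higher. Of 8 tested Gbp genes, 7 were lower and Gbp3 was higher. Of 7 tested Schlafen genes, 5 were lower and Slfn2 was higher (log2 fold change 0.73). Of 11 tested genes of the p200 family of DNA sensors, 9 were lower and Aim2 was higher (log2 fold change 0.23). Of 12 Parp genes, 8 were lower and Parp8 was higher (log2 fold change 0.53).

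Genes of other cell types and stages were counted in the same comparison, beside 29.0% of all genes lower and 30.6% higher. Of 10 markers of long-term HSC, 8 were lower and 0 higher, with a summed level of 819.5 to 1026 CPM in BCR::ABL1- libraries that compared with 358 to 500.4 CPM in BCR::ABL1+ libraries. The 6 markers of granulocyte-monocyte progenitors were all higher, at sums of 1894 to 2586 CPM and 3260 to 9024 CPM. Of 6 mast cell and basophil markers, 5 were higher and 0 lower, with sums of 65.6 to 129 CPM and 299.9 to 1805 CPM, and the log2 fold change of the tryptase gene Tpsb2 was 7.53 (adjusted p = 2.72e-06). The 6 erythroid markers were all lower (sums of 91.0 to 161 CPM and 16.4 to 40.3 CPM), as were the 4 tested megakaryocyte markers (sums of 219.9 to 256 CPM and 77.9 to 244 CPM). Of 7 neutrophil markers, 4 were lower and 0 higher, with sums that overlapped, at 115 to 2531 CPM and 95.004 to 437 CPM. Of 10 monocyte and macrophage markers, 3 were higher and 0 lower. B cell markers counted 2 lower and 0 higher of 6, and T and NK cell markers 1 lower and 1 higher of 5 tested. The shares of higher monocyte and macrophage markers and of lower B cell markers were near those over all genes. Plasmacytoid dendritic cells, which are known for strong expression of Irf7 and Irf8, had 5 of 6 tested markers lower, with sums of 421 to 460.7 CPM and 239 to 303 CPM. Their defining marker Siglech was low in both groups, at 1.06 to 5.09 CPM and at 0 to 1.02 CPM. Cd209d, at 0 in every BCR::ABL1+ library, was too low to be tested. The 1 tested marker that was not called had a log2 fold change of 1.80. The Lin-Sca+Kit+ gate is meant to leave out mature plasmacytoid dendritic cells, and the purity of the sort was not tested. Of 6 sorting and stem or multipotent progenitor markers, 4 were lower and 1 was not called. The 1 higher marker did not overlap between groups (log2 fold change 1.10). Kit, used in the sort, was lower (log2 fold change -0.86, adjusted p = 4.68e-06). Ly6a, which encodes the sort marker Sca-1 and is itself responsive to interferon, was the marker not called. It was at 27.2 to 38.3 CPM and 31.4 to 74.1 CPM (log2 fold change 0.38, adjusted p = 0.0660). Collagen genes of stroma were high in BCR::ABL1+ replicates 2 and 4, where Col1a1 reached 221 CPM against a group median of 0.341 CPM. Without these 2 libraries, 39 members were lower and 2 higher, with a median log2 fold change of -0.97. The part of these cell types in the values of the members was not tested.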

How the data were processed

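Bulk RNA-seq counts of 12 libraries of CD45.2+ Lin-Sca+Kit+ cells (6 CTRL, 6 CML 2wk, grouped by their labels) were used, and the authors deposited raw read counts per Ensembl gene, without normalization. The submitters' processing notes name FastQC 0.11.9, fastp 0.23.2, STAR 2.7.10a, featureCounts 2.0.1, DESeq2 1.36.0 and the build mm39 (GRCm39), while the study's methods for bulk RNA-seq name Trim Galore!, HISAT2, featureCounts and a human genome. Which annotation and strand setting were used, and how multi-mapping reads were handled, is not given in the sources used here. Overlapping, antisense and near-identical genes are uncertain for that reason. The reference used here was GRCm38, so symbols were matched by Ensembl identifier only (52073 of 56748). Promoter sequences come from RefSeq GRCm38.p6, and 11 members had no entry.

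Counts of the 18438 genes that filterByExpr kept were scaled by TMM and fitted with the quasi-likelihood method of edgeR 4.0.16 under R 4.3.3, with group as the only term, Benjamini-Hochberg adjustment over all genes and a threshold of 0.05. Each SE was derived as the absolute log2 fold change divided by the square root of the F statistic of that test. Levels are CPM on TMM-scaled library sizes, with a prior count of 2 for log2 CPM. A count of 0 was read as up to 3 counts, a limit that covers counting error only, since PCR copies are not independent. Depth is given with the results, and lower totals widen the errors of the low genes. No 2 libraries of a group agreed within sampling noise (lowest chi-square per degree of freedom 3.78). Alternatives were upper-quartile and DESeq2 size factors, library totals alone, DESeq2 1.42.0, limma 3.58.1 (voom with sample quality weights), no filter or one of 50 counts in 6 libraries, a replicate block, a prior count of 0.5, exact permutation of single genes and leaving out libraries. Removal of CML 2wk replicates 2 and 4 was chosen after seeing the data. The code was tested on simulated data. Python 3.11.15, pandas 2.3.3 and matplotlib 3.10.9 were used for summaries and plots.

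The members and lists were chosen with earlier results of these data known. Values by library are given for Stat2, Irf1, Irf7, Irf9, Isg15, Usp18 and the 14 members with the largest absolute log2 fold change among those called whose mean log2 CPM reached 1, and up to 12 pathway genes and 8 other interferon-stimulated genes are named, largest change first. Ifitm3, Bst2, Gbp3, Parp9, Oas1a, Ifi35, the gene families, the ratios, Ifnar1 and Ifnar2 were singled out after their values were seen. The same holds for Pnpt1, Ifitm2, Slfn2 and Tor3a, named as higher genes of the second list and not by size of change. Of the pathway list, 1 gene is not reported here.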

Additional observations from a re-analysis of the deposited data

Results flagged for a closer look

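Within each group of 6 libraries, the CPM of every member was examined for a library far from the others (Dixon's test at 95%). Of 90 groups 12 were picked out, where chance gives about 4.5. BCR::ABL1- replicate 5 was the highest library in 7 of them, with the nearest other library in brackets: Eif2ak2 at 133 CPM (116), Adar at 146 CPM (132), Oas1a at 23.1 CPM (18.7), Oasl1 at 11.5 CPM (8.07), Ifi27 at 75.2 CPM (59.2), Ifi44 at 27.5 CPM (21.3) and Rtp4 at 30.9 CPM (21.2). BCR::ABL1+ replicate 6 was the highest in 4, with Oas1a at 20.1 CPM (14.5), Bst2 at 41.7 CPM (30.7), Gbp2 at 47.0 CPM (32.6) and Ifi44 at 8.09 CPM (3.69). BCR::ABL1- replicate 3 was the highest for Parp14, at 160.4 CPM (151). All 12 were highest and none lowest. Members share libraries and regulators, so these are not 12 independent events.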

How the results depend on the processing

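Over 22 alternative fits, the count of members past the threshold ran from 39 to 43, that of lower members from 38 to 41, and the median log2 fold change of the members from -1.08 to -0.88, while 9347 to 12130 genes were called. Of the 45 members, 38 kept their direction and their side of the threshold in every alternative. The 2 higher members depended on the processing: 0 were higher with no filter, 1 with the replicate block, 1 without the libraries numbered 6 in both groups, and 0 to 2 when each library was left out in turn (0 without BCR::ABL1+ replicate 6). With no filter, Gbp3 was at 0.41 (adjusted p = 0.0668) and Ifitm3 at 0.26 (adjusted p = 0.102). Parp9, never called, changed sign to a log2 fold change of -0.035 with no filter, and ran from -0.011 to 0.055 with 1 library left out (-0.0006 without BCR::ABL1- replicate 2, -0.011 without BCR::ABL1+ replicate 6). Isg15 passed with voom (-0.59, adjusted p = 0.0216) and, unadjusted, in the two-sided exact permutation test (-0.45, p = 0.0498). Upper-quartile factors moved the median of all genes from 0.07 to 0.14. Libraries with the same number did not deviate together (correlations of -0.13 to 0.07, with 1 of 6 closest to its own number). Such correlations over 6 libraries per group cannot show whether same-numbered libraries shared any handling. The replicate block called 39 members, losing Oas1a, Ifi35 and Ifitm3. Depth limits the low members most, such as Ifit3 and Mx2, with as few as 5 and 7 counts in a library. The causes of these shifts were not tested.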
